A study of Mus musculus with 4 samples.

Results

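Binding of the transcription factor RUNX1 was described at 10 genes that hold or release the brake on cell division: the inhibitors of cyclin-dependent kinases (CDKs) Cdkn1a, Cdkn1b, Cdkn1c, Cdkn2a, Cdkn2b, Cdkn2c and Cdkn2d, and the D cyclins Ccnd1, Ccnd2 and Ccnd3. A RUNX1 peak was assigned to a gene when the nearest curated RefSeq transcription start site (TSS), measured from the peak edge, belonged to that gene, or when the peak lay inside the gene body. By this rule 7 of the 10 genes had a peak, with 14 peaks among the 10494 of the deposited list. The peaks come from ChIP-seq on chromatin of whole ovaries, taken from CD1 mouse embryos at E14.5 and pooled at 80 to 100 per ChIP by the labels, whereas the study's methods give a higher range. There were 2 RUNX1 ChIP libraries, each made from 20 to 30 μg of chromatin with 10 μl of antibody, and 2 input libraries from the same stage, and the labels name no genetic change or treatment for either group. The authors merged the replicates before they called peaks, so the deposited list gives neither a value per replicate nor a read number for any peak, and nothing below has an error between samples. All cell types of the ovary were in the pools, and the cells from which a peak came cannot be told apart.

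CDKs drive the cell cycle when a cyclin is bound to them. D cyclins pair with CDK4 and CDK6, which phosphorylate the pocket proteins of the retinoblastoma family and so free the E2F factors that switch on genes for DNA replication. INK4 inhibitors (encoded by Cdkn2a to Cdkn2d) bind CDK4 and CDK6 directly, whereas Cip/Kip inhibitors (encoded by Cdkn1a, Cdkn1b and Cdkn1c) bind assembled cyclin and CDK complexes. In the fetal ovary, pre-granulosa cells, the supporting cells in which RUNX1 is found, are arrested in the cell cycle while they surround the germ cells.

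Selected peaks at these loci are given on the forward strand of mm10 (GRCm38), 5′ to 3′. Capitals mark the RUNX core, TGTGGT or TGCGGT, which reads ACCACA or ACCGCA where it lies on the reverse strand. The peak beside Cdkn1b, which by TSS distance belongs to the noncoding gene Lockd, is shown since it was the strongest near any of the 10 genes. The Cdkn2b and Ccnd3 peaks are the strongest assigned to an inhibitor and to a D cyclin, and the Ccnd1 peaks held 5 of the 10 cores.
Lockd, beyond the end of Cdkn1b, chr6:134928350-134928649: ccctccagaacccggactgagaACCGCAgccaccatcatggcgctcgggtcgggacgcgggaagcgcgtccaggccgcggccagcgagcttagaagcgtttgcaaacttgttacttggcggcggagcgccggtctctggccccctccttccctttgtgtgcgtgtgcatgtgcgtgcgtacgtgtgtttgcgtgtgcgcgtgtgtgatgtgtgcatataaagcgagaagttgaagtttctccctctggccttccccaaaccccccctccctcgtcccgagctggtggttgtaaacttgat
Cdkn2b, far upstream, chr4:89425905-89426204: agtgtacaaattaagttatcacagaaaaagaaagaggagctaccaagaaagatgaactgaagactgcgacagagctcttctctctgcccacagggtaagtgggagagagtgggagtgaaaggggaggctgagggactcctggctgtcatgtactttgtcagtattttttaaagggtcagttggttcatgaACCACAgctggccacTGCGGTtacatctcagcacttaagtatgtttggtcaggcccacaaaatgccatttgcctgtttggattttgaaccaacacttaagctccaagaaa
Ccnd3, last intronic peak, chr17:47595573-47595872: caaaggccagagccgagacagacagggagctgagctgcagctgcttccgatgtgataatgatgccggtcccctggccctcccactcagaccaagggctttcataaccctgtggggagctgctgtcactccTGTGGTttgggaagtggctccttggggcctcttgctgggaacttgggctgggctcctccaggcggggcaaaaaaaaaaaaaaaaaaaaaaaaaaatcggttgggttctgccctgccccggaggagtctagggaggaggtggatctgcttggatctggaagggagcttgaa
Ccnd1, far upstream, chr7:145030798-145031097: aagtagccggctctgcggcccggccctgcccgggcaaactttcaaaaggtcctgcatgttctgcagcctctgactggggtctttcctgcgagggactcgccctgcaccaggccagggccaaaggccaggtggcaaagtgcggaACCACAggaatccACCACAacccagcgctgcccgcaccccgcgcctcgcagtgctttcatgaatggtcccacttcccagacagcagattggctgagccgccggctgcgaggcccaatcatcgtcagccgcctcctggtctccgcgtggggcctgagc
Ccnd1, intron 2, chr7:144937503-144937802: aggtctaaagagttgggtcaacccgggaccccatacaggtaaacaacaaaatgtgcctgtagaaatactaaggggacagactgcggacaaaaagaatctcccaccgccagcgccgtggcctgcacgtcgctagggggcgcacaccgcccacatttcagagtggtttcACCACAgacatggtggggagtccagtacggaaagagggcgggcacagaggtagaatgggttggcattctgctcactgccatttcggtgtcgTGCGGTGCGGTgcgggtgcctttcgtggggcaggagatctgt
In the Cdkn2b peak the cores lay 9 bp apart on opposite strands, with centres 44 and 59 bp to the right of the midpoint. In the upstream Ccnd1 peak, a pair of cores on the reverse strand stood at the midpoint, 3 bp before and 10 bp after it, and in the intronic Ccnd1 peak the final pair overlapped by 1 base. The Ccnd3 core stood 16 bp before the midpoint. By contrast, the single core of the Lockd peak lay near its edge, 124 bp before the midpoint.

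RUNX1 peaks were present at all 3 Cip/Kip genes, at 1 of the 4 INK4 genes and at all 3 D cyclin genes. The 7 of 10 compares with 40.8% of the 21000 protein-coding genes, and with 36.6% of all 26180 genes, that had a peak by the same rule. The 14 peaks had folds, the enrichment over background given by the authors' peak caller, from 4.13 to 21.29 with a median of 7.75, beside a median of 6.41 and quartiles of 5.02 and 8.89 over the 10490 peaks on chromosomes. The list does not say whether this fold is over input or over the local signal. A fold of 8 or more was reached by 7 of the 14, against 32.1% of all peaks. Of the 10 genes, 5 had such a peak (Cdkn1c, Cdkn2b, Ccnd1, Ccnd2 and Ccnd3), against 14.6% of protein-coding genes. Taking each gene's strongest peak, the median fold was 9.05 for the 7 genes with a peak and 6.71 for all 8570 protein-coding genes with a peak. A gene with more peaks has more chances of a high one, which neither comparison by gene allowed for. Cdkn1a, Cdkn1c, Ccnd1 and Ccnd3 had 2 or more peaks, as did 17.9% of protein-coding genes with a peak. The 10 genes also had more sequence around them in which a peak counts as theirs, with a median of 75.4 kb (79.2 kb for the 7 with a peak) against 42.5 kb for all protein-coding genes. Over these stretches the list held 19.1 peaks per Mb, against 3.85 per Mb of the genome. The genome value counts all sequence, including long stretches far from any gene, whereas 76% of all peaks lay within 1 kb of a TSS. The 2 densities are therefore not like for like, and none was computed for the stretches of all protein-coding genes. No test was made over 10 genes chosen as a list, and the share among genes active in the ovary was not determined.

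**Figure D1:**
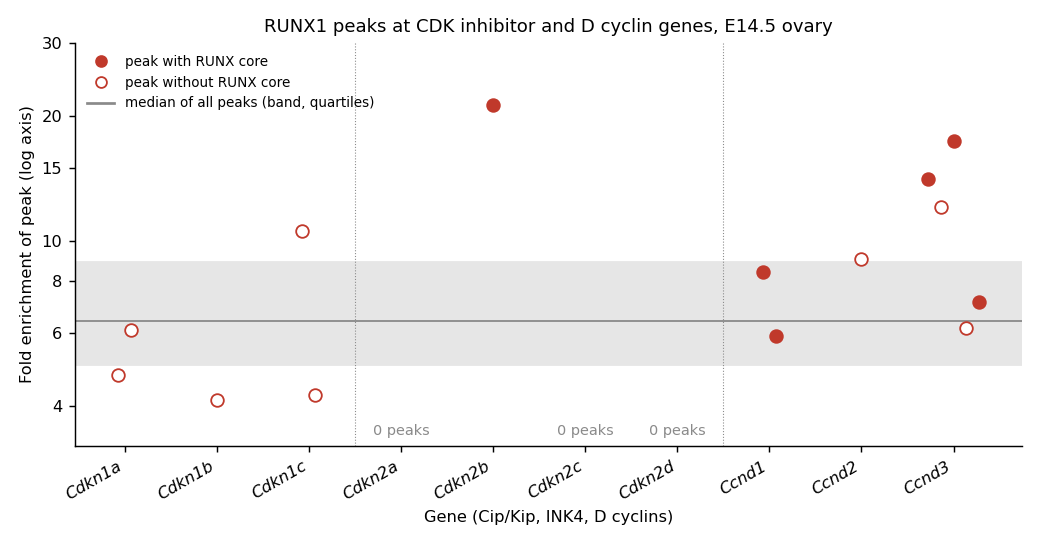
Fold enrichment (log axis) of each of the 14 RUNX1 peaks at the CDK inhibitor and D cyclin genes. Filled points hold a RUNX core, and the line and band give the median (6.41) and quartiles (5.02 and 8.89) of all peaks. The Cip/Kip peaks are all open and lie between 4.13 and 10.58, and 5 of the 8 D cyclin peaks are filled. A core was in 39.9% of all peaks, and the families were not compared by a test.

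At the Cip/Kip genes the 5 peaks were mostly low, with folds from 4.13 to 10.58 and a median of 4.76. A RUNX core was in 0 of the 5, against 39.9% of all peaks, and with so few peaks this was not tested. Cdkn1a, the gene of p21 and a target of p53, spans chromosome 17 from 29090979 to 29100722 on the forward strand and has 2 TSSs. It had a peak at chr17:29094395-29094694 with a fold of 4.76 (p-value 7.51e-14, all p-values being those of the authors' peak caller) and another at chr17:29095455-29095754 with a fold of 6.11 (p-value 9.20e-16). Both lay in intron 1, their edges 626 bp and 1686 bp from the downstream TSS and their midpoints 1060 bp apart, and both were under the median of the list. The gene body held 9 RUNX cores, none of them in these peaks.

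Cdkn1b, the gene of p27, spans chromosome 6 from 134920401 to 134925525 on the forward strand. Its own peak, at chr6:134919851-134920150 and 251 bp upstream of the TSS, was the weakest of the 14, with a fold of 4.13 (p-value 4.64e-10), and only 3.05% of all peaks had a lower fold. Stronger RUNX1 peaks lay beyond its end. A peak at chr6:134926815-134927114 had a fold of 12.34 (p-value 1.39e-29) and began 1290 bp past the gene, and the peak at chr6:134928350-134928649 had a fold of 38.35 (p-value 1.66e-170) and began 2825 bp past it. The latter ranked 56 of 10490 in fold, and 99.5% of all peaks were lower. Both are nearest to the TSS of Lockd, a noncoding RNA gene downstream of Cdkn1b on the same strand, at 1978 bp and 443 bp. They lie 6414 bp and 7949 bp from the Cdkn1b TSS, and they count for Cdkn1b, with 3 peaks in all, once noncoding transcripts are left out. To which of these genes the peaks relate was not tested.

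Cdkn1c, the gene of p57, is an imprinted gene on the reverse strand of chromosome 7 from 143458339 to 143461050. Its peak at chr7:143459331-143459630, in intron 2 and 1420 bp from the TSS, was the strongest at a Cip/Kip gene, with a fold of 10.58 (p-value 3.92e-27) that exceeded 83.2% of the list. This peak had the highest GC content of the 14, at 72.0%, and held a forkhead site, TGTTTAC, 90 bp before its midpoint. A second peak, at chr7:143428335-143428634, lay beyond the gene end, 32416 bp from the TSS, and had a fold of 4.26 (p-value 1.58e-08). The Cdkn1c body held 0 RUNX cores, although the stretch in which its TSS is nearest held 67.

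Only Cdkn2b among the INK4 genes had a peak by the nearest-TSS rule, and that peak was far away. Cdkn2b, the gene of p15, lies on chromosome 4 from 89306289 to 89311032 on the reverse strand. The peak, at chr4:89425905-89426204, was 114873 bp upstream of its TSS and lay within an intron of Gm12610, a noncoding gene that starts beside Cdkn2a and runs across the region in the opposite direction. Its fold of 21.29 was the highest of the 14 and above 97.4% of the list, whereas its p-value of 8.13e-23 ranked it 2928. It also had the lowest GC content of the 14, at 45.3%. The TSS of Gm12610 was 130725 bp from the peak, little farther than that of Cdkn2b. On the far side the next TSS, that of Dmrta1, was 262 kb away. As the peak lies in the Gm12610 body, it counts for that gene too, and the assignment to Cdkn2b rests on distance in a wide gap. The Cdkn2b body and promoter had no peak.

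Cdkn2a, which encodes p16 and p19ARF from separate starts, spans chromosome 4 from 89274473 to 89294619 on the reverse strand and had 0 peaks by the rule, although a peak at chr4:89295013-89295312 began 394 bp upstream of its distal TSS. That peak had a fold of 7.40 (p-value 1.27e-21) and covered the TSS of Gm12610, to which it was therefore assigned. Cdkn2c, the gene of p18, on chromosome 4 from 109660876 to 109666756, had its nearest peak 7966 bp from a TSS, with a fold of 5.97, at the noncoding gene 9630013D21Rik. A peak over the TSS of the neighbour Faf1, the gene of a FAS-associated protein, had a fold of 5.45 and lay 9618 bp upstream of Cdkn2c. Cdkn2d, the gene of p19INK4d, on chromosome 9 from 21288463 to 21291209, was the farthest from any peak, which lay 25613 bp away at Atg4d (fold 11.48). Cdkn2c and Cdkn2d also had the narrowest surroundings of the 10 genes, 10.2 kb and 12.2 kb, in which a peak could be assigned to them.

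All 3 D cyclin genes had peaks, 8 in total, with folds from 5.90 to 17.40 and a median of 8.73. A RUNX core was in 5 of the 8, against 39.9% of all peaks. That share of the list was 34.2% within 1 kb of a TSS and 57.8% farther away. The D cyclin peaks lay at both distances, and the families were not compared by a test. Ccnd3 had 5 of the 8 peaks. It spans chromosome 17 from 47505051 to 47599689 on the forward strand, a body of 94.6 kb, and has TSSs at 47505051 and 47593467. Only 24 protein-coding genes (0.28% of those with a peak) had 5 or more peaks, the most being 6, and the median body of those 24 genes was 203 kb. Among all protein-coding genes with a peak, the median number was 1.

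The 3 strongest Ccnd3 peaks lay at or just after the starts of its long and short transcripts. The peak at chr17:47504946-47505245, over the upstream TSS, had a fold of 14.07 (p-value 3.44e-30), above 91.9% of the list. Intron 1 of the long transcripts held a peak 6126 bp from that TSS with a fold of 6.17 (p-value 1.39e-14) and another at 16474 bp with a fold of 7.10 (p-value 9.73e-13). After a gap of 72051 bp between midpoints, a peak at chr17:47593576-47593875 stood 109 bp from the downstream TSS, in exon 1 of the short transcript, with a fold of 12.03 (p-value 1.72e-28). The strongest followed 1997 bp later, at chr17:47595573-47595872 in intron 2 of the short transcript, with a fold of 17.40 (p-value 5.25e-41) that ranked 464 of 10490. The peak over the upstream TSS held the core TGCGGT 14 bp before its midpoint and a forkhead site 6 bp after it, and the core is shown here within 30 bases.
Ccnd3, upstream TSS, chr17:47505066-47505095: cagctcgagttcTGCGGTgcagcgcggact
The 16474 bp peak also held a TGCGGT, 31 bp after its midpoint, while the peaks of fold 6.17 and 12.03 held none. The Ccnd3 body contained 89 RUNX cores, of which 3 were in its peaks. Just outside the gene, peaks of fold 5.72 at the TSS of Taf8, the gene of a TFIID subunit, and of fold 6.88 and 10.49 at the starts of Bysl and Med20 belonged to those neighbours.

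**Figure D2:**
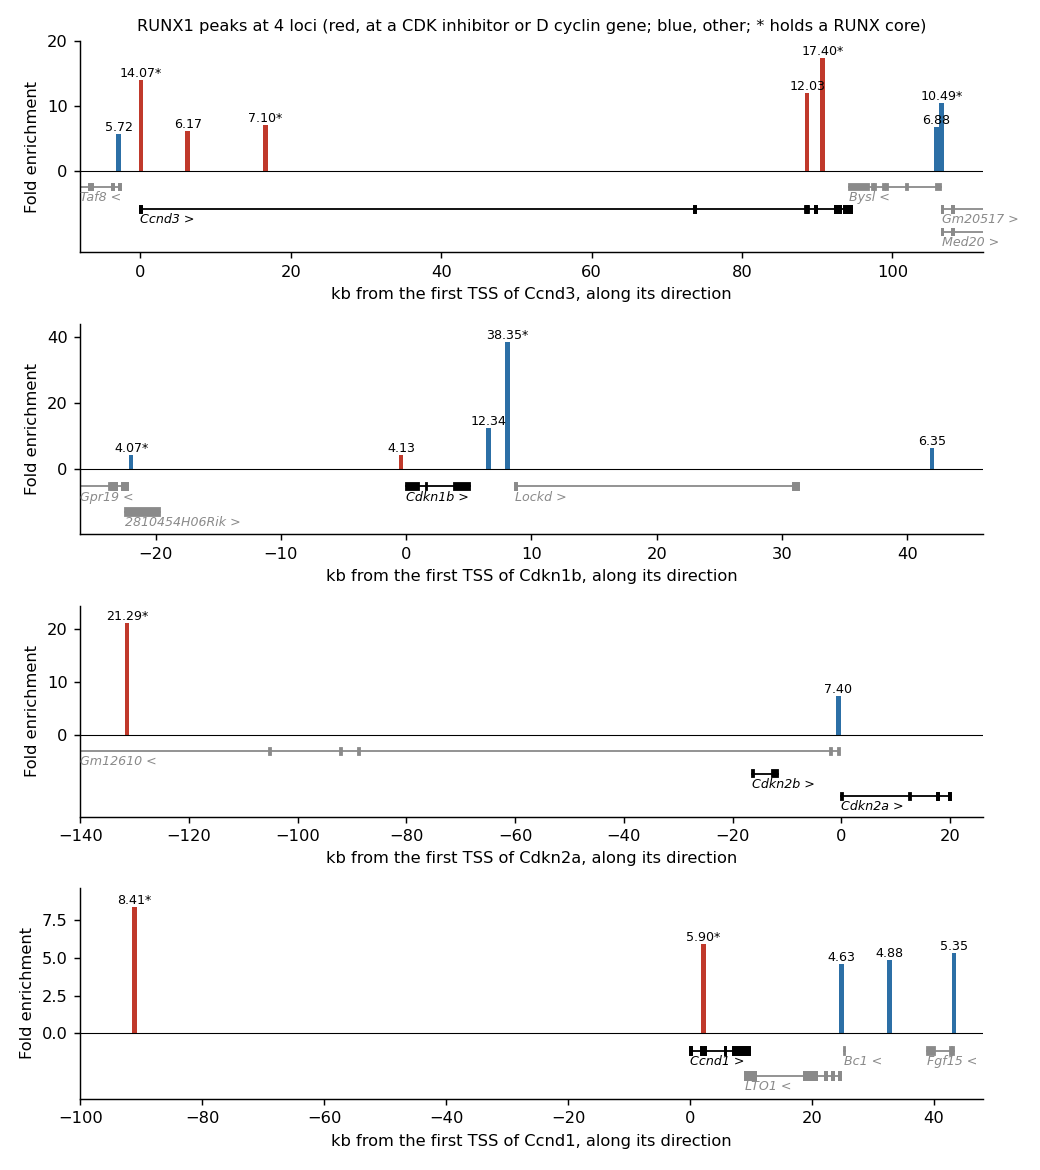
RUNX1 peaks as bars of fold enrichment along 4 loci, in kb from the most upstream TSS of Ccnd3, Cdkn1b, Cdkn2a and Ccnd1 in the direction of each gene. Exons are boxes, arrows give each gene's direction relative to the named gene, bars are drawn wider than 300 bp to be visible, and an asterisk marks a RUNX core. The 3 strongest Ccnd3 peaks stand at or just after its starts, the fold 38.35 peak stands beyond Cdkn1b before Lockd, and the fold 21.29 peak stands far upstream of Cdkn2b.

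Ccnd1 and Ccnd2 had fewer peaks than Ccnd3. Ccnd1, a D cyclin gene often induced by growth factors, lies on chromosome 7 from 144929931 to 144939831 on the reverse strand. Its intron 2 peak, 2029 bp from the TSS, had a fold of 5.90, below the median of the list, but a p-value of 8.01e-23 that ranked 2923, so fold and p-value placed it differently. Its upstream peak, 90967 bp from the TSS, had a fold of 8.41 (p-value 4.86e-29). In the curated models the nearest TSS of another gene, LTO1, was 116 kb from that peak. With predicted transcripts added, the peak was nearest to another gene and Ccnd1 had 1 peak, that of fold 5.90. Ccnd2, the D cyclin gene of granulosa cell proliferation in the adult ovary, lies on chromosome 6 from 127125708 to 127151048 on the reverse strand. Its only peak, at chr6:127151735-127152034 and 687 bp upstream of the TSS, had a fold of 9.05 (p-value 5.39e-27), held no core, and lay inside intron 1 of the noncoding gene 9330179D12Rik, whose TSS was 2109 bp away. Of the 8 D cyclin peaks, 6 had a p-value under 1e-20, as did 1 Cip/Kip peak and the Cdkn2b peak. The weakest of these, at Cdkn2b, ranked 2928 of 10490 by p-value, so at least that many of all peaks passed the same limit. The exact share of all peaks under it was not determined, and the families were not compared by a test.

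Most of the 14 peaks were not at promoters. The distance from the edge of the peak to the TSS was 1 kb or less for 5 of them, at Cdkn1a, Cdkn1b, Ccnd2 and Ccnd3, whereas 76% of all peaks lay so close to a TSS. A TSS was covered by 1 of the 14, at Ccnd3, against 34.2% of all peaks. At the other end, 4 of the 14 were over 10 kb from the TSS, against 15.9%. In the whole list, peaks within 1 kb of a TSS and those farther away had close median folds, 6.48 and 6.29. The distance was part of the rule that chose the peaks and was not tested.

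**Figure D3:**
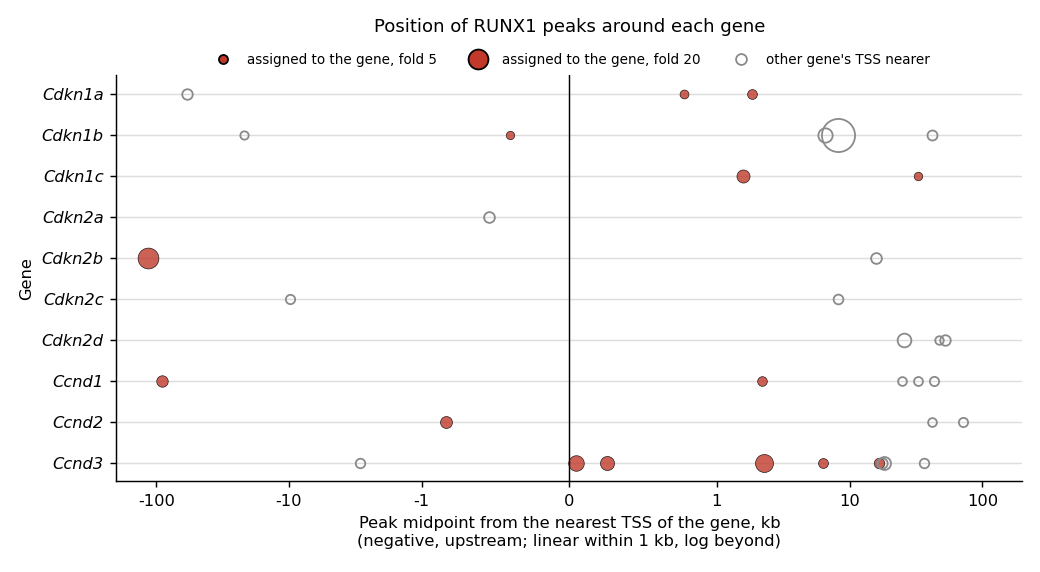
Position of RUNX1 peak midpoints around each of the 10 genes, in kb from its nearest TSS (linear within 1 kb, logarithmic beyond, upstream negative), with point size growing with fold. Red points are the 14 assigned peaks, and open points are peaks within 60 kb of the gene body that are nearest to another gene. Cdkn2a, Cdkn2c and Cdkn2d have open points only, and the largest open point lies past Cdkn1b.

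RUNX cores were about as frequent in these peaks as in the list. At least 1 core on either strand was found in 6 of the 14, or 42.9% with an exact 95% binomial interval of 17.7% to 71.1% that covers counting error only, against 39.9% of all peaks. Windows of the same length centred 1 kb to either side of a peak held a core in 6 of 28 for these genes and in 22.7% for all peaks. TGTGGT was in 4 of the 14 peaks against 19.5% of all peaks, and in 5 of the 28 flanks against 19.1% of all flanks. TGCGGT was in 4 of the 14 against 23.7% of all peaks, and in 1 of the 28 flanks against 4.37% of all flanks. Of the 9 peaks over 1 kb from a TSS, 5 held a core, against 57.8% of such peaks in the list, a split chosen after the data were seen. The stretches assigned to the 10 genes contained 624 cores in 0.734 Mb, and 10 of these lay in the 14 peaks. All 10 were at Ccnd1, Ccnd3 and Cdkn2b.

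Forkhead sites, the kind of site bound by FOXL2, were searched on both strands as TATTTAC or TGTTTAC. They were in 4 of the 14 peaks (28.6%, exact 95% binomial interval 8.39% to 58.1%), at Cdkn1c, Ccnd1 and Ccnd3, against 3.24% of all peaks, 8.28% of all flanking windows and 2 of the 28 flanks of these peaks. The interval takes the peaks as independent, although some share a gene, and makes no allowance for the other sites searched. The difference from the list was not tested. Over the whole list, peaks within 1 kb of a TSS held the site in 2.22%, and among those over 1 kb away the share was 3 of 9 here and 6.47% in the list. All 4 were TGTTTAC, and the 3 outside the Ccnd3 TSS peak are given with 12 bases to either side, each on the strand of the site.
Cdkn1c, intron 2: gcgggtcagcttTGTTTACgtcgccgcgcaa
Ccnd1, intron 2: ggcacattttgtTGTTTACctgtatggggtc
Ccnd3, intron 1: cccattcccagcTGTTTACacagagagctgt
Both the intronic Ccnd1 peak and the Ccnd3 TSS peak held a forkhead site together with a RUNX core, while the Cdkn1c peak and the Ccnd3 peak 6126 bp into the gene held the forkhead site alone. A match to these letters does not show that a factor was bound.

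For the other sites, the exact 95% binomial intervals covered the shares of the list, with the same limits. No site was tested against another. NFY sites (CCAAT) were in 5 of the 14 peaks against 23.5% of all peaks, TEAD sites (GGAATG) in 3 against 10.8%, and GATA sites (AGATAA or TGATAA) in 3 against 8.33%. Sp1 sites (GGGCGG) were in 7 against 57.0%. The letters CCGGAAGT of ETS factors, the E2F forms TTTCCCGC, TTTCGCGC, TTTGCCGC and TTTGGCGC, and the CTCF site were in 0 of the 14, which with 14 peaks allows a share of up to 23.2%, against 4.66%, 4.07% and 1.35% of all peaks. The cell cycle element named CHR, TTTGAA, was in 2 of the 14 (14.3%) against 7.86%, in the Cdkn2b peak and the upstream Ccnd1 peak. The GC content of the 14 had a median of 63.2%, against 66.3% for all peaks, and the ratio of observed to expected CpG a median of 0.617 against 0.813.

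The promoters of these genes were searched for the same core. RefSeq (GRCm38) gave 11 promoter windows, from 250 bases before to 50 after the start, for 7 of the 10 genes, without Ccnd1, Ccnd2 and Cdkn1c. Of the 11, 1 contained a RUNX core (9.09%), against 22.4% of the 32851 windows of the genome. It was that of the upstream Ccnd3 TSS, the core printed above, and this window was also the only 1 of the 11 that a RUNX1 peak overlapped. The peaks 251 bp upstream of the Cdkn1b TSS and 109 bp after the downstream Ccnd3 TSS lay just outside their windows, so this count depends on the window chosen. The share of the genome's windows that a peak overlapped was not determined. The distal Cdkn2a window held the only E2F form.

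RUNX1 peaks also lay at the partners and targets of these genes. A list of 43 cell cycle genes had peaks at 28 (65.1%), against the 40.8% of all protein-coding genes given above. Each of the 28 had a peak within 1 kb of a TSS, but 76% of all RUNX1 peaks lay so close. The matching share among protein-coding genes with a peak was not determined. At the 28 genes, the fold of the strongest peak ranged from 4.73 to 25.18, and its median was 8.5. The list covered CDKs (4 of 5 with a peak), other cyclins (5 of 9), pocket proteins (2 of 3), E2F and DP factors (9 of 10), CDC25 phosphatases and WEE1-type kinases (2 of 5) and regulators of inhibitor, cyclin or p53 levels (6 of 11).

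Of the kinases that D cyclins activate, Cdk4 had a peak over its TSS with a fold of 8.54 (p-value 7.44e-35) and 2 RUNX cores. Cdk6 had no peak of its own, and the nearest, 2138 bp from a Cdk6 TSS, had a fold of 5.25 and belonged to Gm36470. Among the pocket proteins, which restrain E2F factors, Rb1 had no peak, and the nearest lay 118892 bp from its TSS. Its relatives did: Rbl2, the gene of p130, had a peak over its TSS with a fold of 21.60 (p-value 1.92e-66) that ranked 260 in the list, and Rbl1, the gene of p107, had 2 peaks, the stronger with a fold of 11.11. E2f4 was the E2F gene without a peak. The repressor E2f7 had a fold of 10.74 and E2f5 a fold of 12.17.

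The strongest peak at these 43 genes was at Cks2, the gene of a small CDK-binding subunit, 89 bp upstream of its TSS, with a fold of 25.18 (p-value 5.41e-136) and a rank of 166. Ccnh, the cyclin of the CDK-activating kinase, followed Rbl2 with a fold of 16.97 over its TSS (p-value 1.99e-92), and Ccng2, the gene of a cyclin linked to arrest, had a fold of 15.18. The p53 regulators Mdm2 and Mdm4 had folds of 13.75 and 9.87, and the phosphatase gene Cdc25a had 9.52. Trp53 itself had no peak by the rule, with the nearest 958 bp away at Wrap53 (fold 4.78), and the mitotic cyclin genes Ccnb1 and Ccnb2 had their nearest peaks 41888 bp and 81513 bp away.

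**Figure D4:**
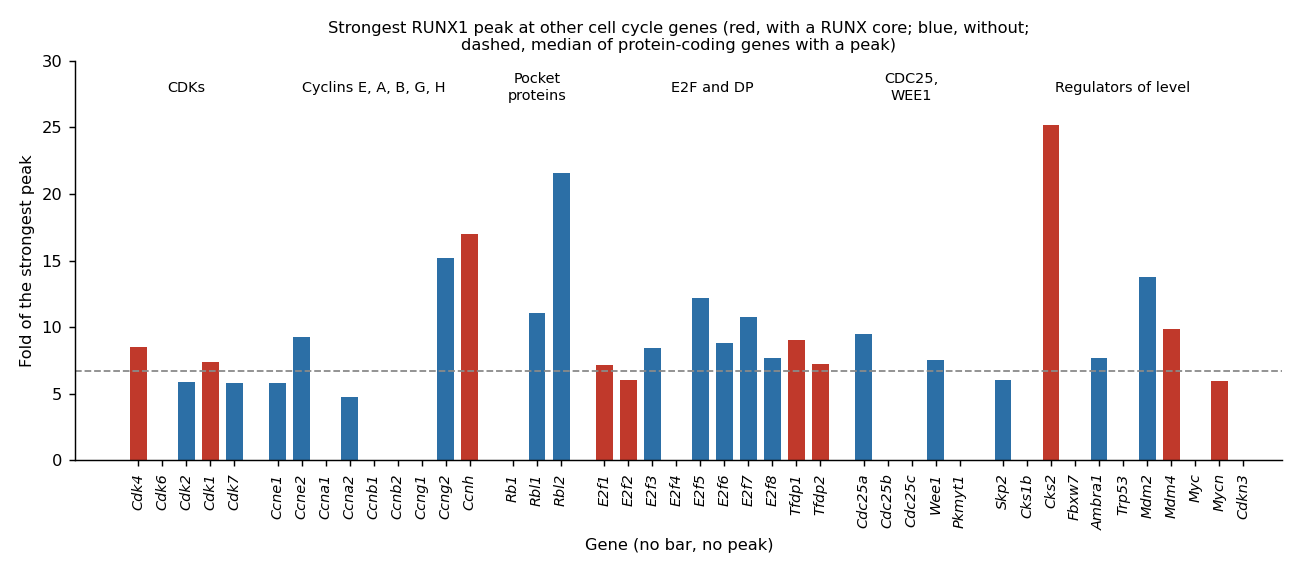
Fold enrichment of the strongest RUNX1 peak at each of 43 other cell cycle genes, by role, with bars starting at 0. Red bars hold a RUNX core, blue bars do not, and a gene without a bar has no peak. Cks2 (25.18), Rbl2 (21.60) and Ccnh (16.97) stand highest above the dashed median of protein-coding genes with a peak (6.71), and Rb1 and Cdk6 have no bar.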

How the data were processed

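RUNX1 ChIP and input libraries of E14.5 ovaries (2 of each) were sequenced, mapped to mm10 at unique positions, freed of duplicates and merged by the authors, who called peaks, set each to 300 bp and filtered them on enrichment over input and over the signal nearby. Tools in the submitters' processing notes are HOMER 4.9, bedtools 2.24.0, Picard 1.110 and Bowtie 1.2. The deposited list gives each peak a fold, a ratio to background (input or local signal, which the list does not say), and a p-value, both from the authors' peak caller and neither computed again here. Merging leaves no replicate error, and the deposited list does not give the reads behind a peak. Unique mapping leaves out repeats, and the enrichment limits leave out weaker binding.

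From the list, 4 peaks outside the assembled chromosomes were dropped and 10490 were assigned with Python 3.11.15, pandas 2.3.3 and pysam 0.24.0 to 45756 curated RefSeq transcripts of GRCm38, with ties kept. Chromosome Y held 0 peaks. The nearest-TSS step of the assignment was tested on simulated peaks close to the TSS of their gene. That test did not cover the gene-body part of the rule or genes with several TSSs. Intervals are exact binomial (scipy 1.17.1). Coordinates count from 1. Members and gene lists were chosen with earlier results of these data known, and no test was made over them. The text names all 10 genes, genes whose TSS is nearer at a peak in or within 10 kb of them, flanking genes, the 10 pathway genes with the highest folds, and Cdk4, Cdk6, Rb1, Rbl1 and Rbl2, and the other pathway genes named without a peak were chosen after their values were seen. Alternatives were limits of fold 8 and of p under 1e-20, other gene models, midpoint distance, windows of 10 kb and 50 kb, and other forms of the core.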

Additional observations from a re-analysis of the deposited data

How the results depend on the processing

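The number of the 10 genes with a peak stayed at 7 with midpoint distances, with the nearest TSS alone and with predicted transcripts added. It was 5 at a fold of 8 or more (14.6% of protein-coding genes) and 5 at a p-value under 1e-20 (15.9%), and it was 9 with protein-coding transcripts alone (42.0%), when Cdkn2a and Cdkn2c gained a peak and the strongest at Cdkn1b became 38.35. Any TSS within 10 kb gave 8 genes (43.9%) and within 50 kb all 10 (62.8%). Under both windows the Cdkn2b peak of fold 21.29 was lost. Cdkn2b then had 0 peaks within 10 kb, and within 50 kb its strongest had a fold of 7.4. Of the 14 peaks, 7 remained at fold 8 or more (32.1% of all peaks), with a median fold of 12.0. At a p-value under 1e-20, 8 remained, and the share of all peaks under that limit was not determined. Ccnd3 had 3 peaks under either limit, and pathway genes with a peak numbered 15 under either. With any TSS within 50 kb, the peaks at these genes rose to 29, of which 9 were at Ccnd3. With predicted transcripts, the upstream Ccnd1 peak went to another gene. Of 62 alternative values of the main results, 53 moved by under 1.5 times or within their interval and 9 by more. The share of the 14 peaks with a core fell from 42.9% to 21.4% for the forms TGTGGTT or TGCGGTT, which 15.2% of all peaks held. It was 28.6% for TGTGGT alone and for TGCGGT alone. These shares counted as unmoved only because they lay within the wide interval of 17.7% to 71.1%. Among 131 values of single genes, 30 moved. No paired analysis was possible because the peaks were called on merged replicates, and for the same reason no replicate could be left out. The list holds no read counts, so the precision of a weak peak cannot be given. A gene without a peak is one without a peak past the authors' limits, and assignment by distance does not show which gene a peak acts on.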
